A study of Mus musculus with 9 samples.

Results

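Committed adipocyte progenitors were examined in single-nucleus RNA sequencing of epididymal adipose tissue, the visceral fat pad of male mice, across lean, obese and formerly obese animals. A droplet barcode was counted as a committed progenitor nucleus when it passed a fixed rule on unique molecular identifiers (UMIs), where each UMI stands for 1 captured RNA molecule. The barcode had 500 to 3000 genes and at most 40000 UMIs. It showed a UMI of at least 2 of the stromal genes Pdgfra, Lama2, Abca8a, Ebf2 and Fbn1, and of at most 1 of Muc16, Upk1b, Bnc1, Msln and Ptprc, which mark mesothelial and immune cells. Its UMIs of Bmper, Egfros, Nox4, Fgf7, Col6a5, C7 and Sned1 summed to at least 3 and exceeded the sum of Dpp4, Pi16, Sema3c, Sema3e, Opcml and Creb5. The rule kept 12466 of 91687 barcodes, of which 76356 were within the limits on genes and UMIs and 26892 passed the stromal gate. The nuclei were thus chosen by the measured UMIs of these genes, whose levels are given below as a description without a test.

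The 9 libraries came from 45 male C57BL/6J mice, with nuclei of 5 mice pooled into each library and 1 library per diet group. The chow groups were C, CC and CCC, collected at 18, 26 and 39 weeks of age. The control diet is called chow in the labels and low fat in the series description. The paper describes a low-fat control diet during HFD feeding and another, standard chow for both groups in the weight-loss period. By this account C was on the low-fat diet at collection, and CC and CCC were on the standard chow. Obesity was represented by H, collected at 18 weeks of age after 12 weeks of high-fat diet (HFD), and by HH, collected at 31 weeks after 25 weeks of HFD. Weight loss was represented by HC, which had 12 weeks of HFD and then 8 weeks of chow, and by HHC, which had 25 weeks of HFD and then 8 weeks of chow. They were collected at 26 and 39 weeks of age. HCH had the 12 weeks of HFD and 8 weeks of chow of HC followed by 4 further weeks of HFD, and CCH had only those last 4 weeks of HFD after chow. Both were collected at 30 weeks. A leading code in the sample descriptions, S075 for C, H, HH, CCH and HCH and S019 for CC, CCC, HC and HHC, split the libraries, so that all HFD libraries carried the former and both weight-loss libraries the latter. What the code stands for is not stated there. The S019 libraries are also those that, by the paper's account, were on standard chow at collection, so code and control diet coincide. Because each group was 1 pool, the mice within a group cannot be told apart, and the 3 chow, 2 HFD and 2 weight-loss libraries were used as replicates of a diet state although they differed in age and duration.

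Adipocyte progenitors are fibroblast-like cells of the fat stroma that carry the PDGF receptor PDGFRα, deposit collagen and basement membrane, and can turn into adipocytes. In the visceral fat of mice they include committed progenitors, which are close to adipocyte differentiation, and cells with Dpp4, Pi16 and Sema3c, a more fibroblast-like and inflammation-prone kind often called fibro-inflammatory progenitors. In obesity such cells are known as a source of fibrous matrix and of chemokines that draw in immune cells.

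The number of committed nuclei ran from 738 in CCH to 2302 in HH, with 1282, 800 and 753 in C, CC and CCC, 1329 in H, 1530 and 2210 in HC and HHC, and 1522 in HCH. Their median depth was 2329 to 3997 UMIs per nucleus, and the summed counts per library were 2089403 to 7443174 UMIs. Mitochondrial genes took a median of 0.065 to 0.595% of the UMIs of a nucleus, and 3.12 to 10.8% of the members were called as doublets by Scrublet. Of 12448 distinct member barcodes 18 occurred in more than 1 library.

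Pdgfra, itself a gene of the stromal gate, is given as a description and not as a check of the label. After thinning each nucleus to 1000 UMIs, Pdgfra was detected in 16.9 to 46.1% of committed nuclei per library. It was detected in 0 to 1.59% of mesothelial and 0.401 to 1.95% of macrophage nuclei. The gates for these nuclei allowed at most 1 of several stromal genes, Pdgfra among them. Its low detection there was thus in part set in advance. The values without thinning were 36.2 to 69.5%, 0 to 3.17% and 0.978 to 5.11%, at median depths of 2329 to 3997 UMIs in committed and 2000 to 3416 in mesothelial nuclei. The label was checked against adipocyte markers, which the rule did not use, and part of the members went against it, in CC most of them. At least 3 of Adipoq, Plin1, Plin4, Lipe, Cidec and Pck1 were detected in 428 of 1282 members in C, 645 of 800 in CC and 330 of 753 in CCC. In H and HH this held for 16 of 1329 and 26 of 2302 members. Without thinning Adipoq was detected in 52.4% of committed and 49.2% of mesothelial nuclei of CC. A wrong label was thus not told apart from other sources of these UMIs. Of the 12466 members, 1220 had over 50 UMIs of 12 adipocyte markers (among them Adipoq, Plin1, Lipe and Cidec) per 10000 UMIs, and 375 members lay between 40 and 60. As a description, in these marker-rich members Pdgfra was detected in 3.81 to 29.4% per library, against 46.9 to 70.1% of the other members, although the marker-rich ones were deeper, with median depths of 3307 to 6178 against 2314 to 3657 UMIs. In CC 314 members were marker-rich, fewer than the 645 above. Some of the other CC members thus also showed at least 3 of the adipocyte genes from Adipoq to Pck1.

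**Figure D1:**
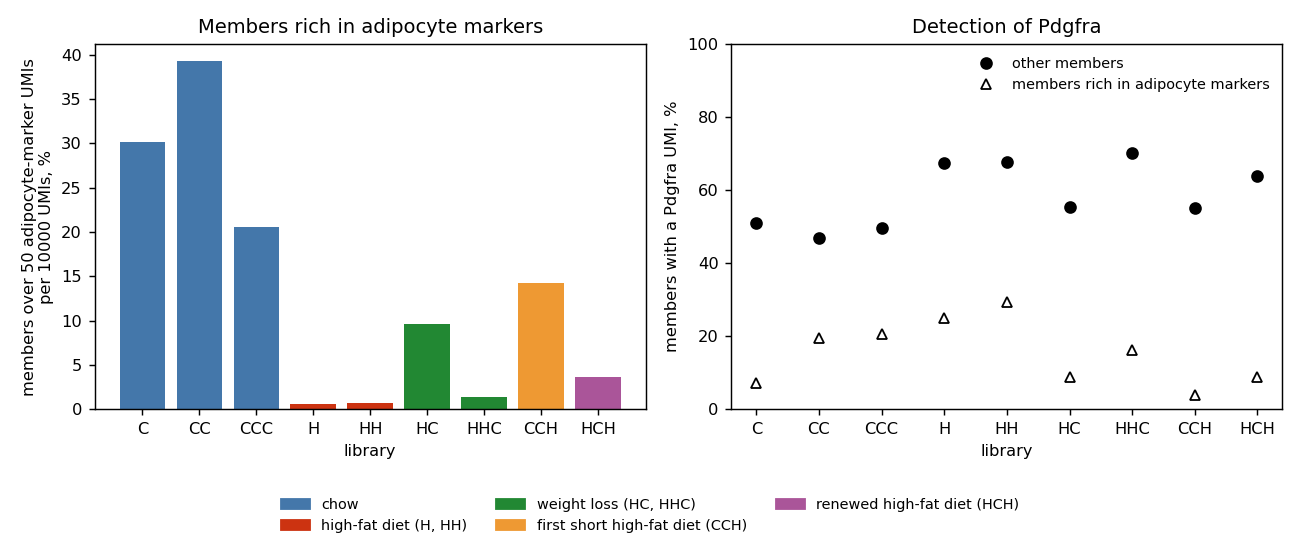
Share of committed progenitor nuclei rich in adipocyte markers in each library (left, percent of members) and share of nuclei with a UMI of Pdgfra among marker-rich and other members (right, percent of nuclei). The marker-rich share was 39.3% in CC and 0.602% in H, and in every library Pdgfra was detected less often among the marker-rich nuclei.

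The marker-rich members were unevenly spread over diets. They made up 30.1, 39.3 and 20.6% of the members in C, CC and CCC, against 0.602 and 0.738% in H and HH. Of the weight-loss members 9.67% (HC) and 1.40% (HHC) were marker-rich, and 14.2 and 3.68% in CCH and HCH. The chow libraries thus held the most and the HFD libraries the least, and a comparison of diets over all members mixes in this difference. Levels per library are therefore given below for the 11246 members that were not marker-rich, in counts per 1000000 (CPM) of their summed UMIs, and the fits were run with and without the marker-rich members. Fold changes and adjusted p are those of all members unless stated otherwise. The limit of 50 was chosen after the data were seen.

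Markers of other cells were also present in the remaining members, and whether as free RNA, doublets or debris was not tested. In the members that were not marker-rich the summed level of the 12 adipocyte markers was 915, 2532 and 1609 CPM in C, CC and CCC, 163 and 254 CPM in H and HH, and 491 to 768 CPM in the other libraries. Mesothelial nuclei of the same libraries, which should lack these genes, held 1321, 2808 and 1224 CPM in chow and 144 and 296 CPM in H and HH. The summed level of 16 macrophage markers was 507, 841 and 945 CPM in C, CC and CCC, 4024 and 4867 CPM in H and HH, and 1720 and 5310 CPM in HC and HHC. In mesothelial nuclei it was 461 to 529 CPM in chow, 4000 and 3786 CPM in H and HH and 1286 and 4159 CPM in HC and HHC, so these markers differed with diet in nuclei of another kind as well. A gene is therefore described below as standing above other nuclei when its level in the committed progenitors was at least 2-fold that in both mesothelial and macrophage nuclei in every library of the state in which it was higher. The Dpp4/Pi16 kind of progenitor was not part of this criterion, so a gene that meets it can be as high there. Mesothelial nuclei were few in some libraries, with 45 in HC, 63 in CC, 74 in CCC and 82 in HHC. Low levels in them rest on few UMIs. This criterion, too, was added after the data were seen. It is met through the libraries in which a gene is high, so the difference between diets itself helps a gene to meet it, and the counts of genes that meet it are descriptions.

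By the UMIs of the rule, more of the progenitor nuclei counted as committed in obese and formerly obese mice than in lean mice. Among committed and Dpp4/Pi16 nuclei together, the latter 7603 nuclei of the same gate with at least 3 UMIs of the 6 genes led by Dpp4 and more of these than of the committed genes, the committed share was 42.5, 58.3 and 57.3% in C, CC and CCC. The HFD libraries H and HH had 70.4 and 71.8%, and the weight-loss libraries HC and HHC 80.5 and 78.5%. The HFD libraries and the weight-loss libraries lay above all chow libraries, by 18.4 and 26.8 percentage points in the means, against an SD of 8.85 points among the chow libraries. CCH was lowest at 35.5% (95% Clopper-Pearson interval 33.4 to 37.6%), and HCH, which had been obese before, stood at 61.5% (59.5 to 63.4%). The share depends on the level of the rule's genes, which also differed in nuclei outside the committed members. In Dpp4/Pi16 nuclei the 7 committed genes summed to 757, 859 and 1006 CPM in C, CC and CCC and to 1539 and 1421 CPM in H and HH, and in mesothelial nuclei to 554, 763 and 1180 CPM and to 346 and 626 CPM. How far a shift in level moved nuclei across the rule was not tested, so the shares are no count of cells. The intervals cover counting error only, and with 1 library per group the shares were not tested.

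As a part of all barcodes within the limits, the members were 11.01, 19.3 and 13.05% in C, CC and CCC, 13.5 and 17.3% in H and HH, 28.4 and 24.3% in HC and HHC, 10.1% in CCH and 15.4% in HCH. The weight-loss libraries lay above every other library. The HFD mean exceeded the chow mean by 0.943 points, less than the SD of 4.32 points among the chow libraries, and this sign turned with the rule's limits (−1.25 points with a UMI sum of at least 2 and −1.50 points with no upper limit on genes). The whole-tissue share also moves with the number of nuclei of other types, such as the 23128 macrophage and 6405 adipocyte nuclei counted by marker gates. Without the marker-rich members the shares were 8.19, 13.2 and 10.9% in C, CC and CCC and 13.5 and 17.2% in H and HH.

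**Figure D2:**
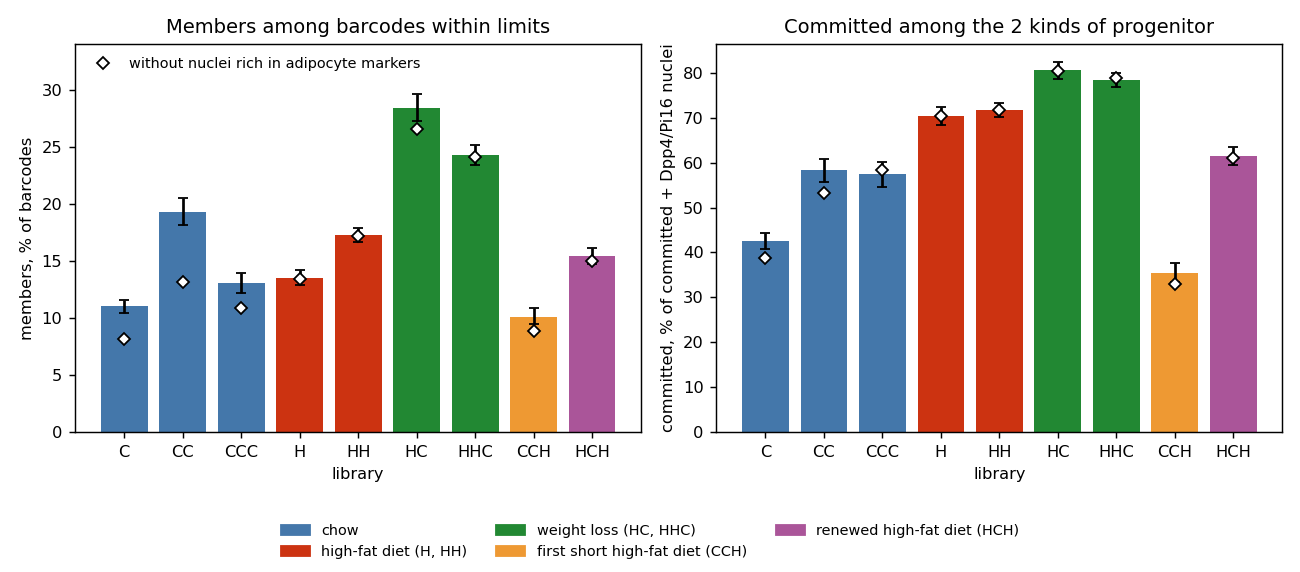
Share of committed progenitor nuclei among all barcodes within the limits (left, percent) and among committed and Dpp4/Pi16 nuclei (right, percent) in each of the 9 libraries. Bars show all members with 95% Clopper-Pearson intervals for counting error, diamonds the values without marker-rich nuclei. In the right panel H, HH, HC and HHC stand between 70.4 and 80.5% and the chow libraries between 42.5 and 58.3%.

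The genes that define the nuclei differed in level among libraries. Bmper, a secreted regulator of BMP signalling, was at 1215 to 1468 CPM in chow and 1981 and 1646 CPM in H and HH. Nox4, an NADPH oxidase, was at 161, 106 and 148 CPM in C, CC and CCC, 505 and 464 CPM in H and HH, 137 and 256 CPM in HC and HHC, and 431 and 575 CPM in CCH and HCH. All 4 libraries on HFD at collection were thus above the chow and weight-loss libraries. Fgf7, an FGF ligand that acts on epithelia, was at 75.6 to 111 CPM in chow, 226 and 179 CPM in H and HH and 174 and 143 CPM in HC and HHC. Egfros was at 50.4, 22.8 and 122 CPM in chow, 216 and 428 CPM in H and HH, and 69.2 and 306 CPM in HC and HHC, so that the weight-loss libraries stood far apart. Sned1, a matrix protein, was highest after weight loss, at 1322 CPM in HC and 784 CPM in HHC against 427 to 552 CPM in chow. C7, a complement component, was lower on HFD, at 1814 CPM in H and 2514 CPM in HH against 2694 to 5008 CPM in chow. Pdgfra was at 340, 281 and 370 CPM in chow, 559 and 716 CPM in H and HH, and 361 and 582 CPM in HC and HHC. Mesothelial nuclei of any library held at most 10.6 CPM, but their gate limited Pdgfra, so this gap was in part set in advance.

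A UMI sum of exactly 3 was found in 959 members, and 1140 barcodes that otherwise passed had a sum of 2. Pdgfra, a gate gene, was detected in 11.8 to 69.4% of the former and 11.6 to 61.1% of the latter per library. The values differed most in HCH, with 50% inside and 27.0% outside, and were 37.5 and 28.6% in CCH. They lay the other way in C (13.8 and 16.3%), HC (19.7 and 21.8%) and HHC (37.9 and 39.6%). Of the members with a sum of 3, 2.72% in HH and up to 63.2% in C and 70.9% in CC were marker-rich.

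Several genes outside the rule separated committed from Dpp4/Pi16 nuclei within every library. Of 9672 genes compared, 510 were higher and 653 lower in the committed nuclei of all 9 libraries, and 11 and 38 were so by at least 2-fold. Because both kinds were taken by rules on their UMIs, these differences describe the kinds and were not tested. The separation upward with the largest smallest ratio was that of Pde11a, a phosphodiesterase that breaks down cyclic nucleotides, with a log2 ratio of 2.66 to 4.06 over the libraries and a median near 3. Lrrtm3 and Hpca, better known from neurons as a synaptic adhesion protein and a calcium sensor, had log2 ratios of 2.04 to 4.41 and 1.32 to 4.24. L3mbtl4 (1.64 to 3.54), Tspan11 (1.99 to 3.47) and Grm3 (1.31 to 3.17) were also higher in all libraries. Adam12, a metalloprotease of fibroblasts and of the adipocyte lineage, had the narrowest range of these, 1.55 to 1.95.

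On the other side stood genes of the Dpp4/Pi16 nuclei. Adamts16, a matrix metalloprotease, had log2 ratios of −7.61 to −3.67, Dact2, an inhibitor of Wnt and TGFβ signalling, −5.87 to −3.35, and Efhd1 −4.88 to −2.95. Lmx1a, a homeobox factor, Bmp7, a BMP ligand that promotes brown adipocyte formation, Fndc1 and Cd55, an inhibitor of complement, were also lower in committed nuclei in all libraries, with ratios no nearer to 0 than −2.61, −2.39, −1.71 and −1.58. Without marker-rich nuclei of either kind 14 genes were at least 2-fold higher and 33 lower in all libraries, among 8472 compared. There Igf1, the growth factor that drives adipocyte differentiation, was 1.24 to 2.70 higher on the log2 scale in the committed nuclei.

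**Figure D3:**
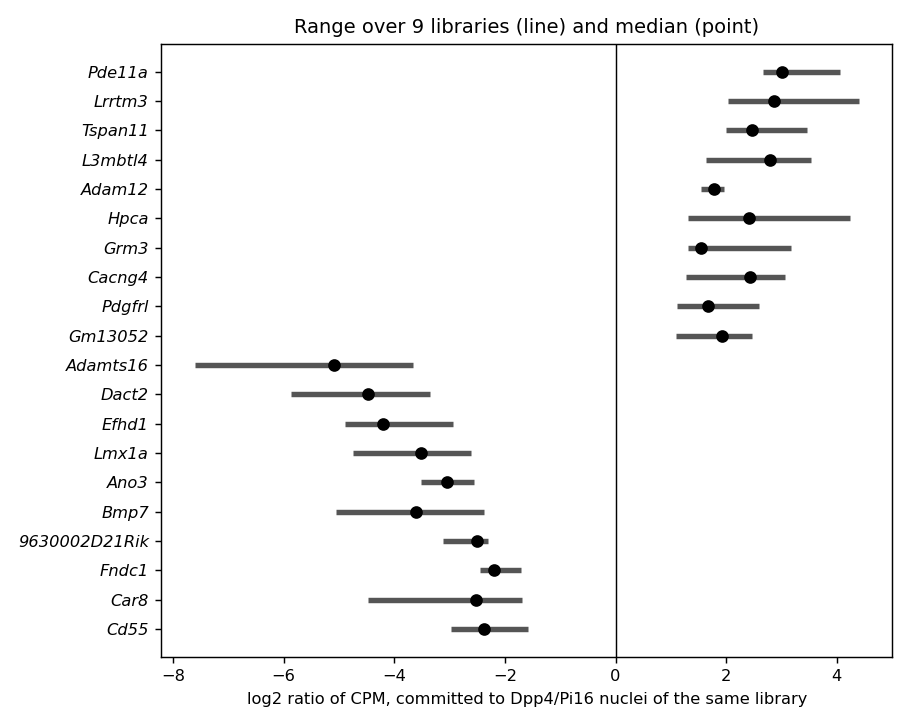
Log2 ratio of the level (CPM) in committed to that in Dpp4/Pi16 nuclei for the named genes, all members included. Lines give the range and points the median over the 9 libraries, with counts under 3 set to 3. Pde11a has the largest smallest ratio on the right, with a range of 2.66 to 4.06, and Adamts16 stands farthest to the left, between −7.61 and −3.67.

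The main comparison asked which genes of the committed progenitors differed between mice on HFD at collection (H and HH) and lean mice (C, CC and CCC). Some genes of fibrous matrix, matrix turnover, chemokines and adhesion were higher on HFD, among them Postn, Lum, Col8a1, Mmp3, Vcam1 and Cxcl1. Among the genes that were lower were Ghr, Insr and Pappa of growth hormone, insulin and IGF signalling, and Rtl4, Cdh13 and Clic6. Of 15495 genes tested by the edgeR quasi-likelihood test, 1690 (10.9%) were higher and 1761 (11.4%) lower at an adjusted p under 0.05, and 22.3% were called in either direction. Without the marker-rich members 1225 (8.07%) of 15179 genes were higher and 1242 (8.18%) lower. Genes called in both fits numbered 1116 and 1047, and of these 143 higher and 42 lower genes stood above other nuclei. The calls leaned on single libraries. No gene was called without H (3986 had an unadjusted p under 0.05), 149 were without HH and 1003 without CC, and DESeq2 on all libraries called 3812. Without marker-rich members the counts were 42, 110 and 458. With the label code as a term the fit called 1269 genes, of which 447 were higher and 822 lower, and 413 without marker-rich members, where the fit without the code called 2467 (16.3%). Of the genes named for HFD, those that lost the call with the code, at adjusted p of 0.0501 (Plod1) to 0.275 (Junb), were Acvr2b, Agrn, Bhlhe41, C3, Ccl7, Ccl11, Cd34, Cebpd, Cenpp, Col18a1, Col4a5, Col5a2, Cxcl1, Fgf10, Fgfr2, Frem1, Frzb, Hes1, Igf1r, Il6, Isg15, Junb, Klf15, Lama4, Lama5, Lrrtm3, Mfap4, Nr2f1, Nr3c2, Oas1a, Pappa, Plod1, Plod2, Pparg, Rxra, Scd1, Serpinf1, Socs3, Stc2, Thy1, Tmprss11d, Trpc5, Tsc22d3, Vit, Wnt6 and Xaf1. Without marker-rich members the code also ended the call of Postn, Mmp3, Vcam1, Icam1, Fap, Col1a2, Col3a1, Col6a3, Col27a1, Loxl2, Insr, Runx1, Foxo1, Srebf1, Zbtb16, Atf3, Chrdl1, Esr1 and Gdf15. HFD libraries all carry S075, and C is the only chow library that does. With the code as a term the HFD effect thus rests on H and HH against C alone. C also differs from CC and CCC in age and, by the paper's account, in control diet. Lost and kept calls both rest on this comparison, and what a lost call stems from was not tested. For these genes diet and code are not told apart by this test.

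Collagens that form fibrils were in part higher, and Col1a1 and Col3a1 were also present in mesothelial nuclei. Of 8 fibrillar collagen genes tested, 6 were higher and none lower (Col1a1, Col1a2, Col24a1, Col27a1, Col3a1 and Col5a2), with a median log2 fold change of 1.60 against −0.04 over all genes. Without marker-rich members 5 of 9 were higher, with a median of 1.05. Over all genes 10.9% were higher, and 8.07% without marker-rich members. Col3a1 was at 448, 345 and 544 CPM in C, CC and CCC and at 3281 and 1527 CPM in H and HH. On the log2 scale the rise was 2.63 ± 0.367 (SE) over all members (adjusted p = 0.00725), and 2.25 without marker-rich members. Mesothelial nuclei held 895 to 1970 CPM in chow and 2634 and 2539 CPM in H and HH. Col1a1 ran from 34.4 to 90.4 CPM in chow to 415 and 257 CPM in H and HH (log2 fold change 2.66 ± 0.451, adjusted p = 0.00935, and 2.27 without marker-rich members), with 55.6 to 74.2 CPM in mesothelial nuclei in chow and 251 and 177 CPM on HFD. Col24a1, a minor fibrillar collagen, had no UMI in the chow members that were not marker-rich, and 11.1 and 17.2 CPM in H and HH. Set against a floor of 3 counts over the chow group it was at least 27.4-fold higher, and its levels in H and HH were 3.61 and 7.96 CPM in mesothelial and 2.92 and 11.8 CPM in macrophage nuclei. Col27a1 alone of these stood above other nuclei, at 47.6, 48.0 and 59.8 CPM in chow and 149 and 113 CPM in H and HH. Summed over the list, Dpp4/Pi16 nuclei, marker-rich ones included, rose as well, from 1233.9 to 1461.5 CPM in chow to 5410.1 and 3351.4 CPM in H and HH. Members that were not marker-rich held 1580.9 to 2002.9 CPM in chow and 6715.4 and 3841.3 CPM in H and HH.

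Collagens outside the fibrils were called in both directions. Among 14 genes of other collagens 5 were higher and 1 lower, and 3 and 2 of 15 without marker-rich members. Their median log2 fold change turned from 0.17 to −0.48 without marker-rich members. In these fits 22.3 and 16.3% of all genes were called. Col8a1, a short-chain collagen of vessel walls and scars, was at 58.8, 51.1 and 96.9 CPM in C, CC and CCC and at 709 and 461 CPM in H and HH. It rose by 3.40 ± 0.359 on the log2 scale (adjusted p = 0.00595), or by 2.91 without marker-rich members. Col6a3, the collagen VI chain from which the adipokine endotrophin is cut, rose from 204, 188 and 190 CPM to 540 and 411 CPM (1.53 ± 0.205, adjusted p = 0.00683). Both stood above other nuclei. Of 22 basement membrane genes 1 was higher (Col18a1) and 7 were lower (Agrn, Col4a3, Col4a4, Col4a5, Col4a6, Lama4 and Lama5), and Lama4 was lost without marker-rich members. Over all genes 11.4% were lower, and 8.18% without marker-rich members. Col4a4 fell from 122, 157 and 133 CPM to 39.2 and 36.6 CPM (−1.51 ± 0.211, adjusted p = 0.00725), and Col4a3 from 51.2, 96.6 and 67.6 CPM to 17.0 and 15.5 CPM. Mesothelial nuclei held 64.5 to 158 CPM of Col4a4 over all libraries, so these chains were not particular to the committed progenitors.

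Among 45 secreted matrix glycoproteins and proteoglycans 13 were higher and 4 lower, with a median log2 fold change of 0.73, and 10 and 5 without marker-rich members (0.40). In these fits 22.3 and 16.3% of all genes were called. Of those higher in both fits Aspn, Fbln7, Lum, Mfap4, Mfap5 and Postn stood above other nuclei. Summed over the list, members that were not marker-rich held 7212 to 8877 CPM in chow and 11132 and 11021 CPM in H and HH. Dpp4/Pi16 nuclei, marker-rich ones included, held 5608 to 7274 CPM in chow and 13111 and 11700 CPM in H and HH. The rise of the list was thus not particular to committed progenitors. Postn encodes periostin, a matricellular protein of wounds and fibrosis, and lies at chromosome 3, 54361109 to 54391037 (GRCm38). It was at 27.6, 22.8 and 44.2 CPM in C, CC and CCC and at 760 and 257 CPM in H and HH. The rise was 4.24 ± 0.552 on the log2 scale (adjusted p = 0.00668) and 3.84 ± 0.463 without marker-rich members (adjusted p = 0.0074). Left without H, its adjusted p was 0.0571 in all members and 0.0361 without marker-rich ones. Lumican (Lum), which regulates fibril assembly, rose from 39.2, 24.6 and 46.2 CPM to 363 and 326 CPM (3.41 ± 0.383, adjusted p = 0.00595, and 3.04 without marker-rich members). Aspn rose from 17.2, 27.7 and 44.2 CPM to 154 and 134 CPM, and the microfibril protein Mfap5 from 107, 89.8 and 98.2 CPM to 472 and 421 CPM. Their log2 fold changes were 2.49 and 2.53. Mfap4, lower in level, went from 1.6, 1.23 and 1.3 CPM to 15.3 and 11.7 CPM. Fbln7, an adhesion protein of the fibulin family, rose from 3.2, 1.85 and 5.2 CPM to 31.3 and 42.3 CPM (3.64 ± 0.369, adjusted p = 0.00595). Vit, which encodes vitrin, moved the other way, from 230, 192 and 258 CPM to 61.4 and 95.3 CPM (−1.17 ± 0.265, adjusted p = 0.019).

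The enzymes that build and cut the matrix rose with it in part. Of 18 collagen processing genes 8 were higher and 1 lower, and 5 of these remained higher without marker-rich members (Loxl1, Loxl2, Pcolce, Plod1 and Plod2). Plod2, a lysyl hydroxylase for cross-links, went from 174, 84.9 and 109 CPM to 342 and 285 CPM, with 168 and 211 CPM in mesothelial nuclei of H and HH. Of 33 proteases and their inhibitors 10 were higher and 4 lower, and 9 and 3 without marker-rich members. The counts of both lists are to be read against the 22.3 and 16.3% of all genes called in these fits. Mmp3, or stromelysin, which lies at chromosome 9, 7445822 to 7455975, was at 6.8, 5.54 and 0.65 CPM in C, CC and CCC and at 63.1 and 76.6 CPM in H and HH. It rose by 4.36 ± 0.536 on the log2 scale (adjusted p = 0.00668), by 3.69 ± 0.586 without marker-rich members (adjusted p = 0.00954), and was at 17.1 and 23.8 CPM in Dpp4/Pi16 nuclei of H and HH that were not marker-rich. Without H its adjusted p was 0.0571. Mmp11 rose from 5.6, 12.3 and 15.0 CPM to 80.9 and 81.3 CPM (3.16 ± 0.444, adjusted p = 0.00725, and 2.75 without marker-rich members). Mmp2, a gelatinase, rose from 50.8, 56.0 and 64.4 CPM to 195 and 166 CPM. Fap, a dipeptidyl peptidase of activated fibroblasts, rose less, from 196, 200 and 291 CPM to 526 and 370 CPM (1.31 ± 0.284, adjusted p = 0.0171). Without marker-rich members its change was 0.79 with an adjusted p of 0.0486.

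The upstream sequences of Mmp3 and Postn are shown because these genes had the widest rise among the matrix genes that stood above other nuclei. Each line gives the 250 bases before a RefSeq gene start in GRCm38.p6, on the plus strand. Capitals mark matches to 2 motifs, both searched on both strands. The motif TGANTCA is known from the binding of AP-1 factors such as Fos and Jun. The other motif, TATAAA, is found near the start of many inducible genes and does not overlap the former in the lines shown.
Mmp3 (chr9:7445572-7445821): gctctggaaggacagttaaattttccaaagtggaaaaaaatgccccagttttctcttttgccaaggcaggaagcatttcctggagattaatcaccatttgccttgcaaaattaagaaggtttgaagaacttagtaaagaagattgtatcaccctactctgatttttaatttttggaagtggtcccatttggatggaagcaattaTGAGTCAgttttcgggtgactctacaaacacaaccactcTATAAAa
Postn (chr3:54360857-54361106): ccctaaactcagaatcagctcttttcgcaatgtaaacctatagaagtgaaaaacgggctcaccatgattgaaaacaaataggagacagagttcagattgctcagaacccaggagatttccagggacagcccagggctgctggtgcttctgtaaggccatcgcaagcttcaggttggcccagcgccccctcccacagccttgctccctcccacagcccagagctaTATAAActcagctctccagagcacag
The table holds another start of Postn, with a window at chr3:54359017-54359266 that has no match to either motif, and the start shown is the one nearest to the annotated gene start. In Mmp3 the match to TGANTCA began at position −46 and that to TATAAA at −7 from the gene start, and in Postn TATAAA began at −26. Of 32851 promoters in the table, which also cover the bases just after the start, 2565 (7.81%) held TGANTCA and 4473 (13.6%) TATAAA. Among the 14 matrix genes that were higher in both fits and stood above other nuclei, 9 matched the table, 1 held TGANTCA (Mmp3) and 3 held TATAAA (Aspn, Mmp3 and Postn). Such matches are letters only and say nothing of what binds there in these nuclei.

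The general stromal genes, a list of 14 that includes Cd34, Thy1 and Pdgfrb, shared the direction of the matrix. Of these 12 were higher and none lower, with a median of 1.64 against −0.04 over all genes, and 10 remained so without marker-rich members (median 1.22). In these fits 10.9 and 8.07% of all genes were higher. Summed over the list, Dpp4/Pi16 nuclei, marker-rich ones included, rose as well, from 2902.7 to 3676.6 CPM in chow to 9831.8 and 9163.5 CPM in H and HH. Mesothelial nuclei held 3603 to 4090 CPM in chow and 7667 and 8112 CPM in H and HH. For macrophage nuclei these were 1235 to 1776 CPM and 2488 and 3670 CPM. Members that were not marker-rich held 4120.1 to 5564.4 CPM in chow and 10560 and 10297 CPM in H and HH. Pdgfrb, a receptor for PDGF ligands, rose from 91.2, 157 and 191 CPM to 399 and 373 CPM (1.72 ± 0.332, adjusted p = 0.0126, and 1.22 without marker-rich members). Serpinf1, an inhibitor of angiogenesis, rose from 31.6, 20.9 and 52.7 CPM to 121 and 108 CPM. Cygb, a globin of fibroblasts, rose from 31.6, 56.0 and 97.5 CPM to 146 and 171 CPM.

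Chemokines, cytokines and adhesion molecules leaned upward. Of 47 genes tested 17 were higher and 1 lower, and 11 and 2 without marker-rich members. Over all genes 10.9 and 8.07% were higher in these fits, and 11.4 and 8.18% lower. The 5 that stood above other nuclei were Ccl7, Ccl11, Cxcl1, Icam1 and Vcam1. Ccl7, which draws monocytes, was at 11.6, 2.46 and 3.9 CPM in C, CC and CCC and at 47.6 and 44.9 CPM in H and HH (3.18 ± 0.638, adjusted p = 0.0138, and 2.62 without marker-rich members). Cxcl1, a neutrophil chemokine, went from 4.0, 0.615 and 4.55 CPM to 28.1 and 28.5 CPM (3.57 ± 0.661, adjusted p = 0.0112, and 2.96 without marker-rich members). Eotaxin (Ccl11) rose from 15.2, 23.4 and 49.4 CPM to 86.8 and 127 CPM, and its fold change had the widest margin of error of these relative to its size (2.09 ± 0.59, adjusted p = 0.038). Vcam1, the ligand of the integrin VLA-4 on leukocytes, rose from 58.4, 28.9 and 54.0 CPM to 203 and 227 CPM (2.42 ± 0.309, adjusted p = 0.00668, and 1.98 without marker-rich members). Icam1 rose from 28.4, 28.3 and 29.9 CPM to 64.1 and 69.1 CPM. Il6 had no UMI in any chow library and 4.19 and 2.83 CPM in H and HH, at least 6.46-fold higher against a floor of 3 counts over the chow group, or 11.1-fold when all members are counted.

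Complement and interferon genes were called less clearly for this cell type. Of 20 complement genes 8 were higher and 3 lower, and 6 and 2 of 21 without marker-rich members, where 22.3 and 16.3% of all genes were called. None stood above other nuclei. C3 rose from 240, 172 and 242 CPM to 422 and 707 CPM, while mesothelial nuclei held 1835 and 1894 CPM in H and HH. Of 24 interferon-stimulated genes 6 were higher and 1 lower, or 3 and 1 without marker-rich members (Isg15, Oas1a and Xaf1 higher, Rsad2 lower), the latter close to the 16.3% called over all genes in that fit.

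Growth factor genes were called in both directions. Of 34 genes of PDGF, FGF, HGF and VEGF signalling 4 were higher (Fgf10, Fgfr2, Hgf and Pdgfrb) and 8 lower, and 4 and 7 without marker-rich members, where 22.3 and 16.3% of all genes were called. Fgf10, an FGF ligand that supports the formation of adipocytes, was at 119, 148 and 145 CPM in C, CC and CCC and at 689 and 335 CPM in H and HH. It rose by 1.17 ± 0.308 on the log2 scale over all members (adjusted p = 0.0307) and by 1.71 ± 0.294 without marker-rich ones (adjusted p = 0.0114). Dpp4/Pi16 nuclei that were not marker-rich either held 68.1, 89.1 and 148 CPM in C, CC and CCC and 48.1 and 64.4 CPM in H and HH. Adipocyte nuclei held 311 CPM in C and 767 CPM in HH. Vegfa, the angiogenic factor, fell from 114, 130 and 101 CPM to 35.0 and 40.8 CPM. Its log2 fold change was −2.80 ± 0.402 over all members (adjusted p = 0.00758) and −1.81 without marker-rich members. Adipocyte nuclei had 663 CPM of Vegfa in C.

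Of 19 genes of IGF, insulin and growth hormone signalling 2 were higher (Igf2r and Socs3) and 8 lower, and 6 of these stayed lower without marker-rich members (Ghr, Igf1r, Insr, Pappa, Pappa2 and Stc2). Over all genes 11.4 and 8.18% were lower in these fits. Pappa, a protease that frees IGF from its binding proteins, fell from 159, 121 and 171 CPM to 49.6 and 59.8 CPM (−1.11 ± 0.314, adjusted p = 0.0384). Its relative Pappa2 went from 56.4, 16 and 24.7 CPM to 7.64 and 5.09 CPM. Ghr, the growth hormone receptor, stood at 2870, 2722 and 2455 CPM in chow and at 1178 and 973 CPM in H and HH, but mesothelial nuclei held 2776, 2692 and 1408 CPM in chow. Igf1 itself was not called, with 608 to 932 CPM in chow and 522 and 599 CPM in H and HH (adjusted p = 0.252).

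Wnt pathway genes were called in both directions. Of 41 Wnt pathway genes 6 were higher and 10 lower, where 10.9% of all genes were higher and 11.4% lower. Without marker-rich members 2 were higher and 8 lower, where 8.07% of all genes were higher and 8.18% lower. Frzb, a secreted Wnt inhibitor, had no UMI in C and CC, 1.95 CPM in CCC and 8.14 and 6.79 CPM in H and HH (3.72 ± 1.05, adjusted p = 0.0381). Wnt6, a ligand that inhibits adipocyte formation, went from 3.2, 12.9 and 4.55 CPM to 0.247 and 0.943 CPM (−2.99 ± 0.862, adjusted p = 0.0407). Of 46 TGFβ, BMP and activin genes 3 were higher and 6 lower, where 10.9% of all genes were higher and 11.4% lower. Without marker-rich members none was higher and 9 were lower, where 8.07% of all genes were higher and 8.18% lower. The calls of this list in that fit were thus all falls. The 4 lower in both fits were Acvr1c, Acvr2b, Bmpr1b and Chrdl1. Bmpr1b, a BMP receptor, fell from 135, 124 and 120 CPM to 18.5 and 21.3 CPM (−2.47 ± 0.218, adjusted p = 0.00528), with 229 and 264 CPM in mesothelial nuclei of H and HH.

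Some adipogenic factors were lower on HFD over all members, and fewer once marker-rich members were left out. Of 18 adipogenic factors 1 was higher (Cebpd) and 9 lower, with a median log2 fold change of −1.21, but without marker-rich members only 4 were lower (Klf15, Rxra, Srebf1 and Zbtb16) and the median was −0.59. Of all genes 22.3 and 16.3% were called in these fits. Pparg, the master regulator of adipocyte differentiation, was at 258, 990 and 597 CPM in C, CC and CCC and at 270 and 220 CPM in H and HH. Its fold change was −2.80 ± 0.618 over all members (adjusted p = 0.0179) and −1.52 without marker-rich ones (adjusted p = 0.0857). C lay below H, so the groups overlapped, and mesothelial nuclei held 869 CPM in CC. Zbtb16, a zinc finger factor induced by glucocorticoids, fell from 1707, 1602 and 1379 CPM to 255 and 542 CPM (−2.66 ± 0.539, adjusted p = 0.0142, and −2.18 without marker-rich members). Of 17 genes that oppose adipogenesis 4 were higher (Hes1, Nr2f1, Runx1 and Runx2) and 1 lower (Foxo1), and 3 and 2 without marker-rich members, to be read against the same shares. Hes1, a Notch target, alone stood above other nuclei and rose from 22.8, 11.7 and 15.6 CPM to 59.7 and 36.0 CPM (1.66 ± 0.32, adjusted p = 0.0125). Runx2, an osteoblast factor, rose from 14.4, 36.3 and 44.9 CPM to 204 and 147 CPM, while macrophage nuclei of H held 142 CPM.

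Of 20 genes of fatty acid uptake and storage 11 were lower and 1 higher, and 9 and 2 without marker-rich members. In these fits 11.4 and 8.18% of all genes were lower. Scd1, a desaturase, was at 349, 1573 and 547 CPM in chow and 75.2 and 159 CPM in H and HH, and mesothelial nuclei held 447, 1738 and 345 CPM in chow and 79.3 and 159 CPM in H and HH. Plin2, a coat protein of small lipid droplets, moved against the rest. It rose from 81.2, 67.1 and 95.6 CPM to 268 and 278 CPM (1.36 ± 0.205, adjusted p = 0.00758), and mesothelial nuclei held 91.9 and 110 CPM and macrophage nuclei of H 1175 CPM.

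Of 25 steroid hormone and clock genes 2 were higher and 7 lower, and 1 and 4 without marker-rich members (Bhlhe41 higher and Esr1, Nr3c2, Tsc22d3 and Zbtb16 lower), the latter near the 16.3% called over all genes. Cell cycle genes were higher in 6 of 19 tested, where 10.9% of all genes were. Only Cenpp remained among 18 without marker-rich members, a share below the 8.07% of all genes in that fit. Of 18 senescence and arrest genes 1 was higher (Gdf15) and 3 lower, and 1 and 2 without marker-rich members, shares close to the 22.3 and 16.3% called over all genes in these fits. Of 22 immediate early genes Atf3 and Junb were higher, and only Atf3 without marker-rich members, shares below the 10.9 and 8.07% higher over all genes.

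Some of the largest falls belonged to genes on none of these lists. Clic6, a chloride channel family protein, lies at chromosome 16, 92485736 to 92541243. It was at 52.0, 52.9 and 57.2 CPM in C, CC and CCC and at 4.93 and 4.15 CPM in H and HH. The change was −3.22 ± 0.276 over all members (adjusted p = 0.00528) and −3.77 without marker-rich members. Without H Clic6 was not called over all members. Rtl4, a gene derived from a retrotransposon, fell from 465, 418 and 183 CPM to 12.3 and 43.2 CPM (−3.25 ± 0.56, adjusted p = 0.00967, and −3.90 without marker-rich members). Cdh13, the receptor T-cadherin that binds adiponectin, fell from 374, 500 and 364 CPM to 60.9 and 78.5 CPM (−2.25 ± 0.369, adjusted p = 0.00872, and −2.77 without marker-rich members). Dok7, Bdkrb2, the bradykinin B2 receptor, and Lpar3, a lysophosphatidic acid receptor, stood at 17.8 to 23.4, 11.7 to 13.2 and 24.6 to 48.0 CPM in chow. In H and HH they were at 1.73 and 1.89, 0.986 and 1.51, and 3.94 and 9.06 CPM. Trpc5, a cation channel, fell from 22.0, 11.7 and 16.3 CPM to 0 and 2.08 CPM. For each of these genes both HFD libraries lay below every chow library, as they did for 18% of all genes tested. Lrrtm3 and L3mbtl4, which set committed apart from Dpp4/Pi16 nuclei in every library, were also lower on HFD, by −1.91 ± 0.386 (adjusted p = 0.0141) and −1.57 ± 0.262 (adjusted p = 0.0091). Lrrtm3 went from 219, 161 and 205 CPM to 26.1 and 50.2 CPM.

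Rises outside the lists included a receptor, a matrix protein and a protease. Vipr2, a receptor for vasoactive intestinal peptide, rose from 5.2, 1.85 and 0.65 CPM to 47.3 and 36.2 CPM (3.81 ± 0.48, adjusted p = 0.00668, and 3.63 without marker-rich members). Frem1, a matrix protein of developing epithelia, was at 0.65 to 3.08 CPM in chow, 44.6 CPM in H and 10.9 CPM in HH, and Tmprss11d, a serine protease, at 1.2 to 5.85, 26.9 and 59.8 CPM.

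**Figure D4:**
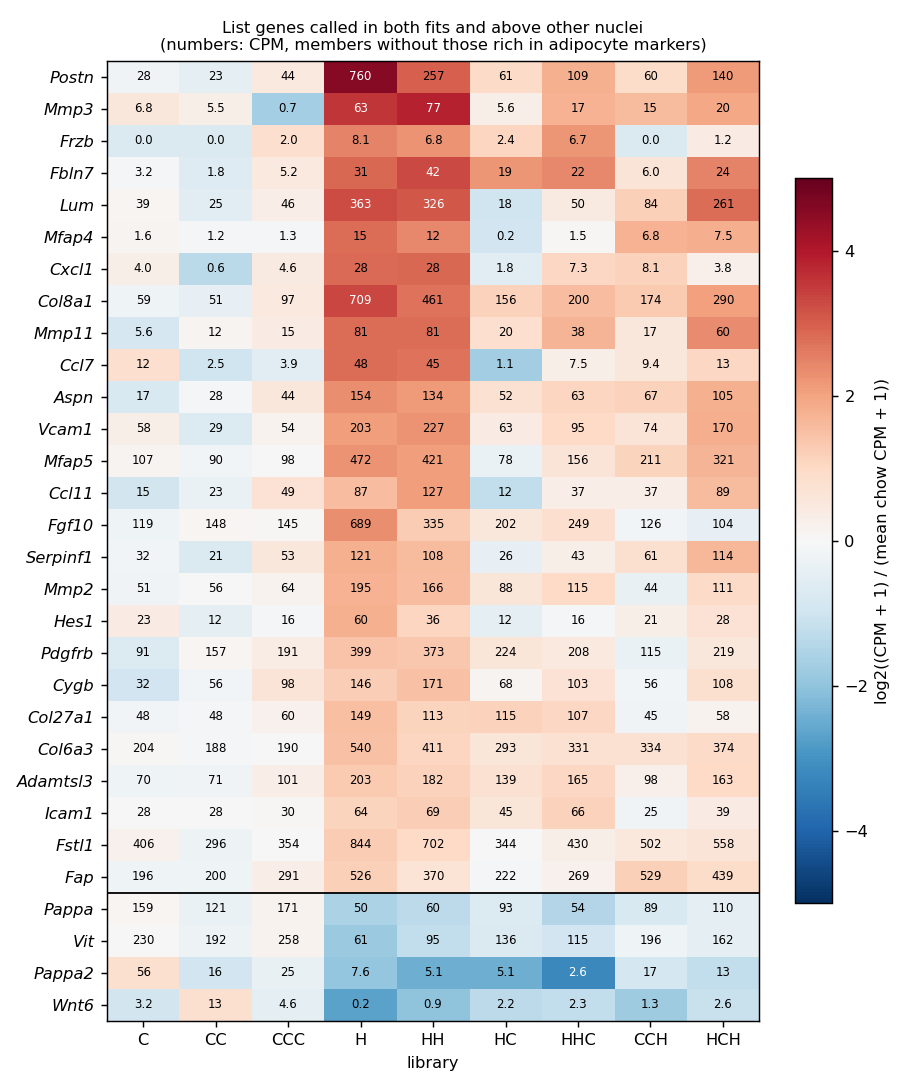
Levels of 26 list genes higher and 4 lower on HFD in both fits and above other nuclei, in the members that were not marker-rich. Rows are genes and columns the 9 libraries, the numbers are CPM and the color gives log2 of (CPM + 1) over (mean chow CPM + 1). Postn goes from 22.8 to 44.2 CPM in chow to 760 CPM in H and 61.5 and 109 CPM in HC and HHC.

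The genes with the largest fold changes over all members included several of other cell types. The rule for naming genes by size gave Trem2, Cd68, Mmp12, Tyrobp, Rgs1, Cxcl2, Mcpt4, Cma1, Gm8113, Vsig8, Rtl1 and Col24a1 as the highest on HFD. Trem2, a lipid receptor of macrophages, was at 1.6, 0.615 and 5.2 CPM in chow and 169 and 225 CPM in H and HH, but mesothelial nuclei held 216 and 219 CPM in H and HH. The macrophage elastase Mmp12 was at 1032 and 702 CPM in H and HH, with 984 and 545 CPM in mesothelial nuclei. In all, 12 of 16 macrophage markers were higher and 1 lower, and 12 and 2 without marker-rich members. The lowest by the same rule were Crisp1, Gm31517, C230072F16Rik, Gm15723, Cyp2e1, Rufy4, Zyg11a, BC035947, Pax8, Ncam2, Erbb4 and Mogat1. Cyp2e1, a cytochrome of adipocytes and liver, went from 297, 344 and 59.2 CPM to 6.66 and 8.11 CPM, and in mesothelial nuclei from 425, 429 and 50.1 CPM to 10.8 and 13.3 CPM. Crisp1, a secretory protein of the epididymis, was at 36.0, 1.85 and 12.4 CPM in chow and had no UMI in H and HH. All 12 adipocyte markers were lower (10 without marker-rich members), as were 5 of 8 endothelial (8), 4 of 8 mural (4), 4 of 5 lymphatic (4), 2 of 3 nerve and glia (0) and 1 of 8 epithelial markers. None of 7 mesothelial markers was called. Il7r alone of 8 lymphoid markers was higher. Over all genes 10.9% were higher and 11.4% lower, and 8.07 and 8.18% without marker-rich members. The epithelial and lymphoid counts over all members were near these shares. The part of other cells in the changes of members was not tested beyond these levels.

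The comparison of formerly obese with lean mice asked what remained different 8 weeks after the change to chow. Few genes did in the fit without age, and more when libraries were paired by age. Those that stood above other nuclei were called higher on HFD as well, in a comparison that shares the chow libraries with this one. They were Nfasc, Lrfn2, Olfm2, Fbln7, Myo16, Lypd1, Rnf182 and the long noncoding RNA 4833422C13Rik, and among transcription factors Runx1 was higher. Of 15495 genes 110 (0.71%) were higher and 42 (0.271%) lower in HC and HHC than in C, CC and CCC, and 0.981% were called in either direction. Without marker-rich members 75 (0.494%) of 15179 were higher and 18 (0.119%) lower, 0.613% in all. Called in both fits were 69 and 12, of which 8 and 0 stood above other nuclei. The count fell to 0 without CC (2033 had an unadjusted p under 0.05) or without HHC (1957), to 1 without HH, to 31 without H and to 85 without CCC, and rose to 742 without HC. DESeq2 called 1011 on all libraries, 499 higher and 512 lower. With the label code as a term the difference is that of HC and HHC from CC and CCC. There 49 were higher and 65 lower, and 72 and 147 without marker-rich members, so the excess of higher genes turned. A fit with age as a block, added after the data were seen, pairs C with H, CC with HC and CCC with HHC and leaves 1 residual degree of freedom. It called 829 higher and 1064 lower, and 468 and 585 without marker-rich members. The 8 genes and Runx1 were called higher in both of these fits as well.

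Nfasc, or neurofascin, a cell adhesion protein best known from the axon, lies at chromosome 1, 132564690 to 132741797. It was at 15.6, 9.23 and 12.4 CPM in C, CC and CCC, at 62.4 and 59.2 CPM in H and HH and at 47.2 and 69.2 CPM in HC and HHC. The difference of weight loss from chow was 2.66 ± 0.284 on the log2 scale (adjusted p = 0.0152) and 2.12 ± 0.27 without marker-rich members (adjusted p = 0.018), and the call was lost without CC, HH or HHC, at adjusted p values of 0.0983, 0.0554 and 0.0507. In mesothelial nuclei it did not exceed 2.65 CPM and in Dpp4/Pi16 nuclei that were not marker-rich it was at 0 to 22.3 CPM. HC and HHC held only 45 and 82 mesothelial nuclei, with 125932 and 267166 UMIs. For genes at such levels the comparison with them rests on few UMIs. Lrfn2, an adhesion protein of synapses, was at 14.0, 4.92 and 12.4 CPM in chow, 55.2 and 42.8 CPM on HFD and 63.0 and 49.6 CPM after weight loss (2.69 ± 0.409, adjusted p = 0.0322). For both genes the weight-loss libraries overlapped the HFD libraries in level, and the difference was not tested. Olfm2, a secreted olfactomedin, was at 8.0, 10.5 and 13 CPM in chow, 30.6 and 27.7 CPM on HFD and 41.9 and 56.2 CPM after weight loss (2.16 ± 0.328, adjusted p = 0.0322), and the difference between weight loss and HFD was not tested. It lost the call without CC (adjusted p = 0.137) and Lrfn2 did so without CC at 0.0983.

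Fbln7 was the only one of 45 matrix glycoproteins called after weight loss, in either fit. It stood at 19.4 and 22.2 CPM in HC and HHC, between the chow libraries (1.85 to 5.2 CPM) and the HFD libraries (31.3 and 42.3 CPM), with a difference from chow of 2.86 ± 0.372 (adjusted p = 0.023) and an adjusted p of 0.116 without CC. Myo16, an unconventional myosin, was at 1.2, 0.615 and 3.9 CPM in chow, 15.5 and 22.3 CPM on HFD and 20.9 and 19.4 CPM after weight loss (3.49 ± 0.459, adjusted p = 0.023). Dpp4/Pi16 nuclei that were not marker-rich held 22.2, 36.2, 14.9 and 35.1 CPM of Myo16 in H, HH, HC and HHC. 4833422C13Rik was at 4.8 to 11.1 CPM in chow, 97.1 and 85.1 CPM on HFD and 28.5 and 57.9 CPM after weight loss (2.87 ± 0.479, adjusted p = 0.0361). Rnf182, a ubiquitin ligase, was at 3.69 to 4.8, 19.8 to 23.2 and 16.2 to 19.8 CPM in the same order, and Lypd1, which binds nicotinic receptors, at 1.85 to 2.6, 11.7 to 16.5 and 11.4 CPM in both weight-loss libraries. The 8 genes were chosen as higher than the chow libraries, so that their order is a description, and every HFD and weight-loss library lay above every chow library. Over all genes this held for 33.8% (HFD) and 13.9% (weight loss), from which nothing is read for chosen genes. Of these genes all 8 lost the call without CC or without HHC. With the label code as a term Nfasc, Olfm2 and Rnf182 kept the call and the other 5 lost it, at adjusted p values up to 0.0786.

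**Figure D5:**
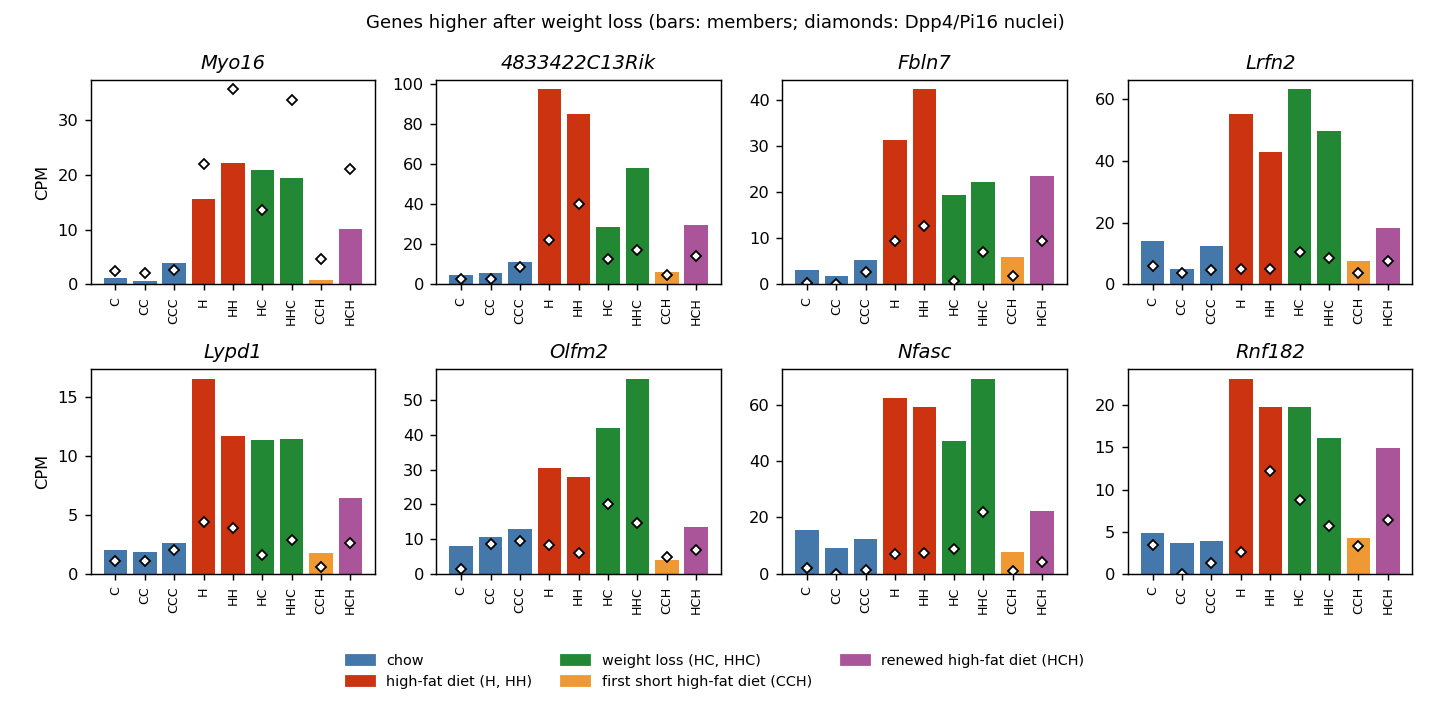
Levels (CPM) in each of the 9 libraries of the 8 genes that were higher after weight loss than in chow in both fits and stood above other nuclei. Bars are committed progenitor nuclei that were not marker-rich, and diamonds Dpp4/Pi16 nuclei, marker-rich ones included. Nfasc stands at 47.2 to 69.2 CPM in H, HH, HC and HHC and at 7.69 to 15.6 CPM in the chow libraries and CCH.

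Matrix, chemokine and adipogenic genes were mostly not called after weight loss in the fit without age, which all counts of lists here refer to. Postn was at 61.5 and 109 CPM in HC and HHC (log2 difference from chow 1.71, adjusted p = 0.137), Lum at 18.0 and 49.9 CPM (0.14, adjusted p = 0.888) and Vcam1 at 63.5 and 95.3 CPM (1.03, adjusted p = 0.127). Lum thus lay below the chow libraries in HC and just above them in HHC, and Postn above them in both, without passing the test. With age as a block Postn and Vcam1 passed it (1.55, adjusted p = 0.000938, and 1.20, adjusted p = 0.00338) and Lum did not (adjusted p = 0.945). Of the lists, 2 fibrillar collagens were higher (Col24a1 and Col27a1, and only Col24a1 without marker-rich members), and Col24a1 was at least 22.2-fold higher against the floor of the chow group. Its levels of 8.46 and 13.8 CPM in HC and HHC lay below the 20.5 and 15.1 CPM of macrophage nuclei. One basement membrane gene was lower over all members, Col4a4, at 33.2 and 39.6 CPM in HC and HHC against 122 to 157 CPM in chow, an order found for 10.8% of genes (−1.51 ± 0.21, adjusted p = 0.0276), and Col4a3 joined it without marker-rich members. Vegfa was lower as well, at 38.1 and 41.5 CPM (−2.21 ± 0.389, adjusted p = 0.0426), and remained so without marker-rich members (−1.61, adjusted p = 0.0256). No gene of the adipogenic, fatty acid, other collagen, collagen processing, Wnt, IGF and insulin, complement, interferon, cell cycle, senescence or steroid lists was called after weight loss, in either fit. Cd44, Adam19, Tgfb1 and Icam1 were each the only gene higher on the stromal, protease, TGFβ and chemokine lists over all members, and none of these lists had a higher gene without marker-rich members, where Bmpr1b was lower. Hgf was higher only without marker-rich members.

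Runx1, a transcription factor that opposes adipogenesis, was higher after weight loss than in chow. It was at 93.2, 116 and 163 CPM in C, CC and CCC, 252 and 228 CPM in H and HH and 358 and 350 CPM in HC and HHC, with no test of weight loss against HFD. The difference of weight loss from chow was 1.63 ± 0.265 (adjusted p = 0.0343) and 1.47 without marker-rich members (adjusted p = 0.0301). Mesothelial nuclei held 151 and 86.1 CPM in HC and HHC and macrophage nuclei 999 CPM in C and 1328 CPM in H, so Runx1 did not stand above other nuclei. Atf3, a stress-induced factor, was at 1.23 to 5.2 CPM in chow and at 20.5 and 27.1 CPM after weight loss (3.13 ± 0.408, adjusted p = 0.023), with 31.8 and 29.9 CPM in mesothelial nuclei. It was the only one of 22 immediate early genes called.

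By fold change alone, the highest genes after weight loss were Trem2, Mmp12, Itgax and Atp6v0d2, which macrophages express, and Vsig8, F7, Gm47507 and Col24a1, and the lowest Spag16, Rgs22, Dnah5, Agbl4, Greb1, Spata17, Acsm5 and Erbb4. Of 16 macrophage markers 6 were higher, where 0.71% of all genes were higher and 0.271% lower. Spag16, a gene of cilia, was at 13.6, 44.9 and 39.0 CPM in chow and at 1.11 and 1.51 CPM in HC and HHC, and also at 0.247 and 1.32 CPM in H and HH. One adipocyte marker, Plin4, was lower, and only over all members. No marker of endothelial, mural, lymphatic, mesothelial, epithelial, or nerve and glial cells was called, and 1 of 8 lymphoid markers (Il7r) was higher.

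The renewed HFD asked whether formerly obese mice (HCH) differed from mice with no earlier HFD (CCH) after the same 4 weeks of HFD at the same age. These libraries took no part in the fits, carry the same label code and were compared by ratios with intervals for counting error, as there was 1 library on each side. Of 12520 genes with enough UMIs in the members that were not marker-rich, 13.4% were at least 2-fold higher and 1.35% at least 2-fold lower in HCH. Enough meant at least 20 UMIs in the higher library, and HCH held 4964848 UMIs against 2341201 in CCH. The limit thus admitted genes higher in HCH at lower levels than genes higher in CCH. Over the 9683 genes with at least 20 UMIs in both libraries the median log2 ratio was −0.008. Of the 143 genes that were higher in H and HH and stood above other nuclei, 121 had at least 20 UMIs, 117 of these were higher in HCH than in CCH, 56 by at least 2-fold and none at least 2-fold lower. Over all 12520 genes 57.4% were higher by any size, and as the genes were chosen for high levels in H and HH the counts are descriptions. Of the 42 lower genes 40 had enough UMIs, of which 2 were higher in HCH and 6 at least 2-fold lower. All 8 genes that remained higher after weight loss were at least 2-fold higher in HCH.

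Among matrix genes Lum was at 84.1 CPM in CCH and 261 CPM in HCH, a log2 ratio of 1.64 (95% interval 1.42 to 1.86). Mmp11 was at 16.7 and 59.8 CPM (1.84, 1.36 to 2.37), Postn at 60.2 and 140 CPM (1.22, 0.96 to 1.49) and Col1a1 at 90.1 and 247 CPM (1.45, 1.24 to 1.67). Vcam1 was at 74.3 and 170 CPM (1.19, 0.96 to 1.44) and Ccl11 at 36.7 and 89.2 CPM (1.28, 0.94 to 1.63). Fap and Fgf10, higher in H and HH, lay the other way, with Fap at 529 and 439 CPM (−0.27, −0.37 to −0.17) and Fgf10 at 126 and 104 CPM (−0.27, −0.48 to −0.06). Col1a1 in mesothelial nuclei went the same way, from 67.3 CPM in CCH to 245 CPM in HCH, and so did Postn, from 14.9 to 54.0 CPM.

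In CCH, 7 of the 8 genes that remained after weight loss were within or below the range of the chow libraries, and Fbln7 lay just above it. Nfasc was at 7.69 CPM in CCH and 22.2 CPM in HCH (1.53, 0.80 to 2.33), Olfm2 at 3.84 and 13.5 CPM (1.81, 0.80 to 3) and Lrfn2 at 7.69 and 18.3 CPM (1.25, 0.51 to 2.07). In HCH these genes were nevertheless lower than in HC, where they stood at 47.2, 41.9 and 63.0 CPM. Fbln7 was at 5.98 and 23.6 CPM (1.98, 1.17 to 2.89) and Runx1 at 50.0 and 103 CPM (1.05, 0.76 to 1.35). Among the genes lower on HFD, Lrrtm3 was at 418 CPM in CCH, above all chow libraries, and at 123 CPM in HCH (−1.77, −1.92 to −1.62), and Rtl4 at 583 and 208 CPM (−1.48, −1.60 to −1.37).

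Over all members 12.9% of genes were at least 2-fold higher and 2.82% at least 2-fold lower in HCH, again with more UMIs in HCH (5239168) than in CCH (2945334). The largest ratios of HCH to CCH were those of macrophage genes, with 1247 against 3 UMIs of Mmp12, 512 against 0 of Trem2 and 641 against 11 of Tyrobp, followed by Itgax and Atp6v0d2. The summed level of the macrophage markers was 3021 CPM in HCH and 421 CPM in CCH in the members that were not marker-rich, and 2922 and 559 CPM in mesothelial nuclei. On the other side were Akr1b7, an aldose reductase-like enzyme, with 1 against 70 UMIs, Adarb2 with 1 against 45, Cish, Pgbd5 and Kcnd2. In CCH Akr1b7 was at 23.8 CPM in members, 37.6 CPM in mesothelial and 40.6 CPM in macrophage nuclei. Kcnd2 was at 13.9 CPM in members of CCH and 268 CPM in mesothelial nuclei. Adarb2 and Pgbd5 were at 15.3 and 21.7 CPM in these members and at 0.99 and 0 CPM in mesothelial nuclei. Without marker-rich members Cish had 5 UMIs in HCH against 10 in CCH.

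A short HFD in mice with no earlier obesity was seen by setting CCH against CC, of which the label codes differ. Of the genes compared without marker-rich members, 5.93% were at least 2-fold higher and 10.9% at least 2-fold lower in CCH, and over all members 6.94 and 10.7%. Of the matrix genes named for H and HH, several were higher in CCH, with a log2 ratio of 1.77 for Lum (95% interval 1.28 to 2.30), 1.40 for Postn (0.87 to 1.97), 1.77 for Col8a1 (1.42 to 2.13), 1.40 for Fap (1.23 to 1.58) and 1.24 for Mfap5 (0.97 to 1.51). Nfasc was not, at −0.26 (−1.33 to 0.83), and Runx1 was lower at −1.21 (−1.56 to −0.87). Fap in CCH, at 529 CPM, was as high as in H, at 526 CPM. The largest ratios in all members were those of Crisp1, Hs6st3, Akr1b7, Ptgs2 (176 against 9 UMIs) and Egr1 (301 against 18), and the lowest those of Gm48099, Gm42418 (6829 against 195045 UMIs), Gm19951, Unc5cl and Car4. Gm42418, which overlaps ribosomal RNA sequence, was at 12301 to 62512 CPM in the 4 libraries with the code S019 and at 1150 to 2803 CPM in the 5 with S075.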

How the data were processed

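Nuclei of snap-frozen epididymal fat were profiled in 9 libraries by droplet 3′ RNA sequencing. The deposited matrices hold raw UMI counts per gene and barcode, which the authors made with Cell Ranger 6.1.2 on the mouse GRCm38 reference with intronic reads included, so unspliced RNA counts toward a gene. The authors used Seurat 4.1.0, scDblFinder and SoupX, and SoupX correction was not applied. None of the authors' annotation was used here.

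Of 32285 genes, 13 mitochondrial genes and Malat1 were left out, leaving 32271. Members, lists and comparisons were chosen with earlier results of these data known. UMIs were summed over the members of each library and tested with edgeR 4.0.16 (R 4.3.3; filterByExpr, TMM, quasi-likelihood F test, Benjamini-Hochberg adjustment) in a single fit over the 7 libraries of the chow, HFD and weight-loss states. The fit was tested on simulated data, in which all libraries shared a single mean profile apart from an HFD effect on chosen genes. Differences in age, duration, label code or RNA of other cells were not simulated, so that test does not cover them. The p-values measure the spread between pooled libraries that also differ in age and duration. CPM were scaled to the summed counts. Ratios between single libraries carry exact conditional 95% intervals for counting error only. Alternatives were DESeq2 1.42.0, other scaling, filters, member limits, thinning, the label code as a term, age as a block and leaving out each library. Doublets were called by Scrublet (scanpy 1.11.5) at an expected 0.8% per 1000 nuclei and kept in the main analysis. In CC, CCC, HC and HHC, where its automatic threshold marked under 0.5%, the highest scores at the expected rate were taken.

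Genes named by size were up to 12 per direction for HFD and 8 for weight loss with an adjusted p under 0.05, the same direction in both pairs of libraries and at least 10 CPM in the higher state. For HCH with CCH and CCH with CC they were the 5 per direction with the largest ratio and at least 20 UMIs. For committed against Dpp4/Pi16 nuclei they were chosen from the 10 per direction with the largest smallest ratio over libraries. List genes were named within their list, and genes standing above other nuclei by a rule added after the data were seen. Totals per library were 22599619 to 66615262 UMIs in 5173 to 14833 barcodes.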

Additional observations from a re-analysis of the deposited data

Results flagged for a closer look

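The committed share of all barcodes moved in opposite directions in the HFD groups. It was 2.52 percentage points higher in H than in C and changed by −2.04 points from CC to HH, and the difference between these effects was not tested. Without marker-rich members both HFD libraries were higher, at 13.5% in H against 8.19% in C and 17.2% in HH against 13.2% in CC. Pax2, a developmental transcription factor of epithelia, had a log2 ratio of 1.79 in HC against CC and of −2.58 in HHC against CCC in the members that were not marker-rich. Its levels were 12.3 and 42.5 CPM in CC and HC and 15.6 and 2.6 CPM in CCC and HHC, and mesothelial nuclei of HC held 39.7 CPM. This difference was not tested either.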

How the results depend on the processing

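Each group has 1 library, so no replicate number pairs libraries, but C and H, CC and HC, and CCC and HHC are of 1 age. With age as the replicate block, which leaves 1 residual degree of freedom and rests the HFD effect on H and C, weight loss gave 1893 calls against 152 (1053 without marker-rich members) and HFD 3634 against 3451 (2232). Of the genes followed, 14 of 158 lost the HFD call (35 without marker-rich members) and 1 gained it (Igf1), and 6 of 45 gained the weight-loss call (Postn, Vcam1, Hgf, Bmpr1b, Col4a3 and Ak9) and none lost it. For HFD against chow, the label code as a term gave 1269 calls against 3451, and 413 against 2467 without marker-rich members. Leaving out each library in turn gave 0 to 3917 calls, and 42 to 2923 without marker-rich members. For weight loss against chow (152 calls), DESeq2 called 1011, no filter on low counts 2131, and edgeR without marker-rich members 93. Without marker-rich members DESeq2 called 524, the label code gave 219, and edgeR without doublet calls 76. Leaving out each library gave 0 to 742 calls, and 0 to 283 without marker-rich members. The cause of these shifts was not tested beyond the smaller number of libraries. With the label code as a term the HFD effect rests on C alone among the chow libraries. Of 158 single genes followed across settings for HFD, 80 kept their side of the threshold with the label code, 77 lost the call and 1 gained it, and 150 kept it without marker-rich members. With both changes 57 kept it, 99 lost it, 1 gained it and 1 turned. Of 45 followed for weight loss, 27 kept it with the label code and 32 without marker-rich members. DESeq2 and RLE size factors kept all 158 HFD genes. Among the called genes, shares and ratios followed, few directions turned, and list medians are not counted here. Lama4 turned on HFD without marker-rich members, to 0.065 with the label code and 0.32 with age as a block. The barcode share of HFD minus chow turned as well (−1.25 points with a UMI sum of at least 2, −1.50 with no upper gene limit). With the mesothelial level subtracted, Shisa9 in HH against CC (0.21) and Tyrobp in HCH against CCH (−1.14) turned. For 65 of the 202 ratios followed, this subtraction gave no ratio. There the mesothelial level reached that of the members in at least 1 library. Depth limits genes of a few CPM, such as Wnt6, to few UMIs per library.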
